A study of Gallus gallus with 4 samples.

Results

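A set of 40 chick genes had small RNA reads in both oxidized libraries that, pooled, lay mostly antisense to the annotated gene. They were chosen from the table of genes outside the miRNA and repeat tables as the rows with 10 or more reads in both oxidized libraries and with 50% or more of these reads, pooled over both libraries, on the reverse strand. The table has 23216 genes, of which 191 had the reads. The strand rule was met by 40 of these, and the other 151 form the sense group used below for comparison. The rule asks for reads after oxidation and does not measure resistance to it. Small RNA of 19 to 38 nucleotides was taken from the cranial midbrain region of chick (Gallus gallus) embryos without genetic change (wild type), incubated for about 30 h at 37 °C to stage HH9-, when the midbrain neural folds are closing and the neural crest has yet to emigrate. All 4 libraries share this stage, tissue and size selection. The 2 oxidized libraries were made from RNA treated with sodium periodate, and the 2 total libraries from the untreated portions of the samples. The labels do not tell whether different embryos went into each replicate, and the spread behind every p-value below may therefore be technical. In bulk tissue, fewer cells carrying an RNA and less of it per cell cannot be told apart.

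PIWI-interacting RNAs (piRNAs) are small RNAs that guide PIWI proteins to complementary transcripts, and they are best known for silencing transposable elements in the animal germline. A methyl group on the last ribose of a mature piRNA protects it from periodate, whereas most animal miRNAs lack it and are lost from an oxidized library. A small RNA in the sense of a gene can be cut from the gene's own transcript, but an antisense one needs a transcript of the opposite strand. Antisense piRNAs are those that can base-pair with the gene's transcript.

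Each library had between 10981001 (oxidized replicate 1) and 17962725 (total replicate 1) reads assigned to any of the 6 tables. Levels are given per 1000000 of these assigned reads (CPM). The reverse tables were taken to hold antisense reads, since at most 0.00257% of tRNA reads were found in them. Over all rows of the gene table, reverse reads were 2.98% and 2.55% of the reads in the oxidized libraries and 2.41% and 1.92% in the total libraries. The gene table lists Ensembl IDs. None of the 24356 IDs of the gene and miRNA tables could be paired with a gene name here, so the genes are given by ID alone, with no sequence. For the same reason no marker gene of the tissue and none of the 20 piRNA pathway genes that were to be looked up could be found.

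The 40 genes held 13868 and 18600 reads of either strand in the oxidized libraries, 0.126% and 0.132% of assigned reads, and 5811 and 4907 in the total libraries, 0.0324% and 0.0328%. On the reverse strand alone they held 13864 and 18969 reads after oxidation and 3538 and 3212 in the total libraries. They made up 62.7% ± 2.74 of all reverse-strand gene reads in the oxidized libraries and 21.1% ± 0.929 in the total libraries (mean ± SD, n = 2 each). The sense group, by contrast, supplied 94.6% and 94.96% of gene reads of either strand after oxidation but only 15.6% and 8.05% of the reverse-strand ones. These oxidized values chose the genes, so they describe the set and test nothing.

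By the values that chose them, most of the 40 genes were strongly antisense. The pooled reverse share in the oxidized libraries was exactly 100% for 12 of them, between 75% and 100% for 13, and from 50% to 75% for 11. For the remaining 4, ENSGALG00000054241, ENSGALG00000040433, ENSGALG00000043671 and ENSGALG00000029193, the reverse table held more reads than the unstranded one, so their share exceeded 100% and their sense reads were set to 0 where the difference was negative. In 9 of the 40 one oxidized library alone lay under 50%. The genes just inside the threshold were ENSGALG00000046486 at 52.2% and ENSGALG00000036582 at 53.8%. Those just outside it were ENSGALG00000054934 at 46.5% and ENSGALG00000037194 at 41.9%. The last of these held 605 and 444 reverse reads after oxidation and 8 and 9 in the total libraries.

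The antisense reads were unevenly spread over the set. The gene with most of them, ENSGALG00000052968, had 3615 and 4239 reverse reads after oxidation, against 38 and 39 in the total libraries (replicate 1 is given first here and below). No read of this gene was on the sense strand in any library. Its reverse level was 315 ± 19.9 CPM after oxidation and 2.36 ± 0.349 CPM in total libraries (n = 2 each), a 133-fold ratio, and it alone made up 24.2% of the set's reverse CPM after oxidation. ENSGALG00000051072 followed with 1002 and 1785 reverse reads against 23 and 32, a 63.7-fold ratio of mean CPM. ENSGALG00000054241 had 958 and 1385 against 17 and 27, a 67.4-fold ratio. Per assigned reads other than miRNA the ratios of these 3 genes were lower, at 38.0-fold, 18.5-fold and 19.7-fold. In these 3 genes each oxidized library stood far above both total libraries, and together they held 39.6% of the set's reverse CPM after oxidation. The 10 highest genes held 68.9%, while the median gene stood at 14.5 CPM and the lowest at 1.49 CPM.

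ENSGALG00000043671 had 460 and 1015 reverse reads after oxidation and 13 and 22 in total libraries, and ENSGALG00000051283 had 497 and 710 against 19 and 28. Their mean levels of 57.0 and 47.8 CPM were 51.9-fold and 32.6-fold those of the total libraries, or 15.3-fold and 9.51-fold with miRNA left out. Others of the 10 highest were already abundant without oxidation. ENSGALG00000032079 had 1114 and 508 reverse reads after oxidation and 584 and 443 in total libraries, and its oxidized libraries spanned 68.8 ± 46.2 CPM against 31.1 ± 2.03 CPM. ENSGALG00000040433 had 891 and 477 against 630 and 538, and its level of 57.5 ± 33.4 CPM after oxidation compared with 35.5 ± 0.653 CPM. In both genes oxidized replicate 2 lay close to the total libraries. ENSGALG00000011570 had 784 and 733 reverse reads against 156 and 183, a 5.90-fold ratio of mean CPM, with each oxidized library above both total ones. ENSGALG00000035334 and ENSGALG00000036229 completed the 10, with 44.6 ± 16.3 and 44.2 ± 23.9 CPM after oxidation and 16.9 ± 0.817 and 19.5 ± 1.79 CPM in total libraries.

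**Figure D1:**
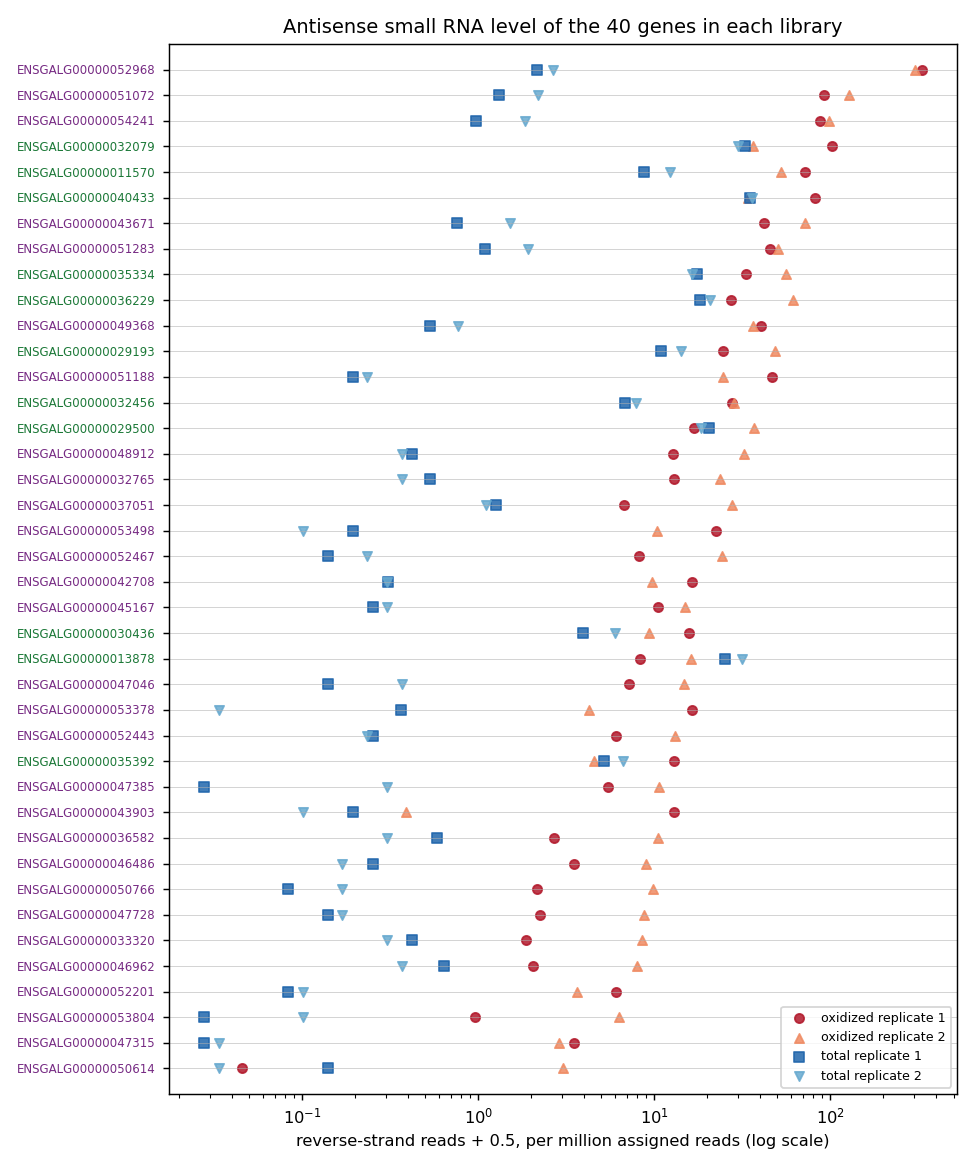
Reverse-strand level of each of the 40 genes in the 4 libraries, as reads plus 0.5 per 1000000 assigned reads on a log axis, in order of the mean level after oxidation. Green IDs had 100 or more reads of either strand in the total libraries and purple IDs fewer. Green genes differ between oxidized and total libraries by 0.430-fold to 5.90-fold, and purple genes by more.

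For description the set was split by its reads before oxidation, at 100 reads, after the values were seen. There is no break at that value. In 11 genes the total libraries held 100 or more reads of either strand (100 to 1874), and in the other 29 they held 0 to 98. The 11 abundant genes had 3311 and 2978 reverse reads in the total libraries, 93.1% of the set's reverse CPM there, and 4610 and 5388 after oxidation, 30.7%. The 29 scarce genes had 227 and 234 reverse reads in the total libraries and 9254 and 13581 after oxidation. Summed over genes, the reverse level was 63.9-fold higher in the oxidized libraries for the scarce tier (904 ± 86.1 against 14.1 ± 2.13 CPM) and 2.09-fold for the abundant tier (401 ± 26.3 against 192 ± 10.6 CPM, n = 2 each). The total count is also the denominator of this ratio, and every gene needed 10 reads in both oxidized libraries, so the gap between the tiers is largely fixed by the split and is not a finding.

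The direction of the abundant tier depended on the denominator. The miRNA table held most reads of the total libraries and few of the oxidized ones: without it 10809300 and 13853491 oxidized and 4380222 and 4758547 total reads remained. Per 1000000 assigned reads other than miRNA, the abundant tier was lower after oxidation, 408 ± 26.6 against 691 ± 91.98, or 0.590-fold. Of its 11 genes 10 were higher after oxidation per 1000000 assigned reads, but only ENSGALG00000011570 (1.69-fold) and ENSGALG00000032456 (1.09-fold) were higher with miRNA left out. The scarce tier stayed 18.2-fold higher (918 ± 87.8 against 50.5 ± 1.87), with all 29 genes higher on either denominator. For all 40 genes the ratio was 6.34-fold (1305 ± 59.7 against 206 ± 12.7 CPM), and 1.79-fold with miRNA left out. How many molecules of each RNA a portion of the sample held was not measured.

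Single genes ranged widely in their oxidation ratio on the reverse strand. Computed with 0.5 read added to each count, the log2 ratio had a median of 5.32 and ran from -1.21 to 7.37 per all assigned reads, and 39 of the 40 were above 0. Per assigned reads other than miRNA the median was 3.47, with 31 genes above 0 and 9 below. The highest was that of ENSGALG00000051188, with 508 and 344 reverse reads after oxidation and 3 in each total library, 192-fold in mean CPM. ENSGALG00000053498, with 246 and 145 against 3 and 1, came to 140-fold. Such ratios rest on a handful of total reads. Per all assigned reads, the exact 95% counting interval of the pooled ratio ran from 85.3 to 509 for the first gene. For the second it ran from 49.7 to 473. Counting intervals do not cover the choice of denominator, and with miRNA left out the ratios were 54.6-fold and 37.1-fold. ENSGALG00000047315 had 38 and 40 reverse reads after oxidation and none in total libraries, so its ratio has only a lower limit. Per all assigned reads that limit is 27.1 by the exact 95% counting interval of the pooled ratio.

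At the other end ENSGALG00000013878 was lower after oxidation on either denominator, with 90 and 227 reverse reads against 451 and 470 (12.2 ± 5.60 against 28.3 ± 4.48 CPM). Both of its oxidized libraries lay below both total libraries. ENSGALG00000029500 had 184 and 515 reverse reads against 368 and 276, and ENSGALG00000035392 had 141 and 63 against 93 and 98. Their log2 ratios of 0.45 and 0.56 were the next lowest of the set, and the CPM of the oxidized libraries of each lay on either side of the total ones. With miRNA left out both genes were lower after oxidation, at 0.382-fold and 0.421-fold.

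**Figure D2:**
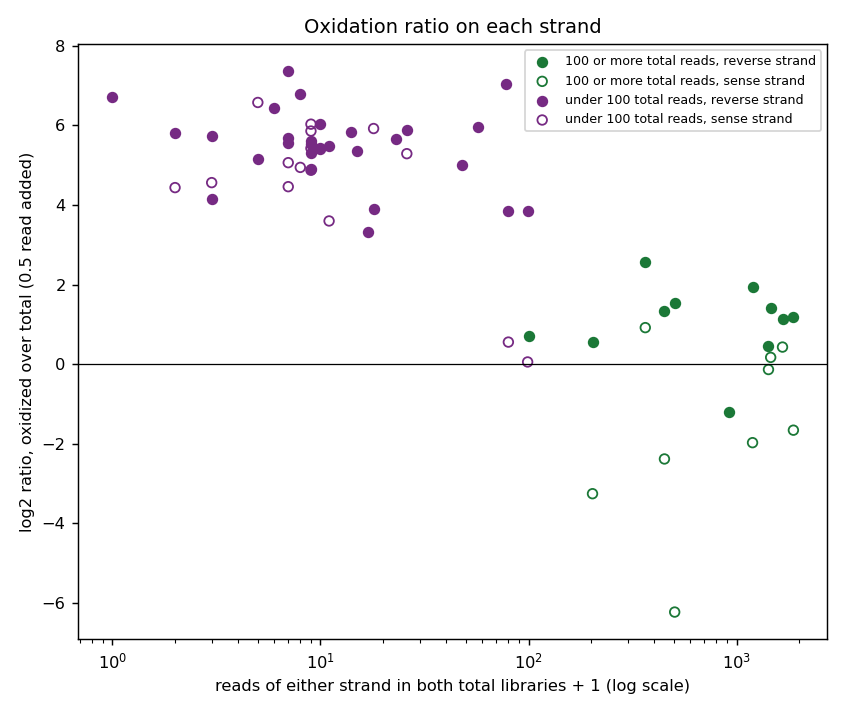
Log2 ratio of mean level after oxidation to that in total libraries for each gene (vertical axis, 0.5 read added) against its reads of either strand in both total libraries plus 1 (log axis). Filled points are the reverse strand of the 40 genes and open points the sense strand of the 24 genes with 10 or more sense reads. Genes with 100 or more total reads (green) lie at log2 ratios between -1.21 and 2.56 on the reverse strand, the others (purple) between 3.32 and 7.37.

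With both strands counted, edgeR's quasi-likelihood test placed 27 of the 40 genes above their total level at an adjusted p under 0.05 and 0 below it (29 had an unadjusted p under 0.05, in either direction). In that fit 15.7% of the 1326 features tested from all tables were called higher and 57.3% lower, and 14.9% of the gene rows were called higher. In the sense group, which met the same minimum of reads after oxidation, 83 of 151 genes were called higher and 11 lower. Being called higher was therefore not particular to the antisense genes. On the reverse strand 38 of the 40 could be tested, and 30 were called higher and 0 lower. There 50% of 210 tested features were called higher and 33.3% lower, and 37.6% of 101 gene rows were called higher. Of the sense group only 17 genes could be tested on that strand, and 5 were called higher and 4 lower. The shares of all features and of gene rows include the set itself: of the 38 gene rows called higher on the reverse strand, 30 belonged to it. The set's genes tested on that strand had a median edgeR log2 fold change of 5.42, against 2.31 over all features tested there. Every one of these calls uses the oxidized counts that chose the genes. Genes with few total reads could pass the filter only through the oxidized libraries. Oxidized and total portions with the same number were taken as parts of 1 sample, and with that replicate block the calls fell to 6 on both strands and 14 on the reverse strand. Scaling within the reverse strand moved the median of all features by -4.38 on the log2 scale, and TMM factors then gave 6 of the genes as higher and 11 as lower. DESeq2 gave 4 and 11. Per assigned reads other than miRNA, 24 genes were higher and 4 lower on both strands. On the reverse strand 21 of 37 tested were then higher and 1 lower. The share of all features called was taken in the main fits only. Whether the genes moved with or against all features in the alternative fits was therefore not measured. Without total replicate 1, or without total replicate 2, the counts of genes called higher were 2 on both strands and 7 on the reverse strand, the lone total library being assumed to vary like the oxidized ones.

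The strand of these genes in the total libraries is a measure that did not enter the choice, although the portions come from the same RNA. Pooled over the 40 genes, reverse reads were 55.3% of the reads of both strands in total replicate 1 (exact 95% binomial interval 54.0 to 56.5%) and 59.1% in total replicate 2 (57.8 to 60.4%). In the sense group the same share was 0.382% and 0.263%. There a single gene held 382992 of the 629135 reads of either strand in total replicate 1 and 421459 of 684654 in replicate 2. It had 1 and 3 reverse reads, so it weighs heavily on that share. The pooled value of the 40 genes is dominated by a few abundant genes. Without the 4 genes whose reverse reads exceed the unstranded ones in some library, its mean over both total libraries was 50.7%. Of the 24 genes with 10 or more total reads 16 had a reverse share of 50% or more, in each total library, and 12 of them had 90% or more. Those 12 include ENSGALG00000040433, ENSGALG00000054241 and ENSGALG00000043671, whose share of 100% rests on sense reads set to 0 in the total libraries. The median over the 24 was 87.3%. Among all 2765 gene rows with as many total reads, 246 (8.90%) reached 50%, and the median row had no reverse reads. Intervals cover counting error only, since PCR copies are not independent molecules.

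Tested row by row within the total libraries, 10 of the 24 genes were called antisense and 3 sense (edgeR quasi-likelihood test of reverse against sense reads with library as a block, adjusted over 2765 rows). Over all of these rows 1.52% were called antisense and 18.4% sense. The spread behind each p-value was shared across rows, since a single row has too few libraries to give it. The lowest p-value was that of ENSGALG00000040433, with 630 and 538 reverse reads and sense reads set to 0 (edgeR adjusted p = 1.41e-50). Its reverse reads exceed its unstranded ones (58 and 42), so sense reads may be missing from the count. ENSGALG00000013878 had 451 and 470 reverse reads against 2 and 0 sense reads (edgeR adjusted p = 1.04e-42). ENSGALG00000011570 had 156 and 183 against 14 and 10 (edgeR adjusted p = 4.32e-12). The antisense bias of ENSGALG00000013878 and ENSGALG00000011570 was present in both total libraries.

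Even scarce genes passed: ENSGALG00000052968, with its 77 total reads all antisense, had an edgeR adjusted p of 2.3e-05. ENSGALG00000051283 with 47 antisense reads of 47 and ENSGALG00000051072 with 55 of 56 also passed (edgeR adjusted p = 0.0017 and 0.0022). The other 4 antisense calls were ENSGALG00000029193, ENSGALG00000035392, ENSGALG00000054241 and ENSGALG00000043671. With rows whose reverse reads exceed the unstranded ones left out, 6 antisense calls were made among 20 genes tested. DESeq2 called only 2 of the 24. The share of all rows called was not taken for these alternatives. The other 16 genes held 89 total reads of both strands between them, of which 74 (83.1%) were antisense, too few to test singly.

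Pooled over the total libraries, 8 genes had a reverse share under 50%, and by the rule it was 50% or more after oxidation. Of these, 6 lay under 50% in both total libraries, and the other 2 reached 50% in total replicate 1. ENSGALG00000032456 had 122 and 117 reverse reads against 561 and 392 sense reads in the total libraries, a reverse share of 20.1% (17.8 to 22.4%), and was called sense there (edgeR adjusted p = 5.21e-08). After oxidation it held 303 and 400 reverse and 46 and 146 sense reads. ENSGALG00000036229 had 327 and 310 reverse against 684 and 553 sense reads before oxidation (edgeR adjusted p = 0.012) and 300 and 861 against 2 and 331 after it. ENSGALG00000033320, the other gene called sense, had 7 and 4 reverse against 40 and 47 sense reads in total libraries (edgeR adjusted p = 0.0070). In both oxidized libraries the reverse reads of these 3 genes outnumbered the sense reads.

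ENSGALG00000030436 had 70 and 89 reverse against 182 and 108 sense reads in total libraries, and 171 and 130 against 3 and 42 after oxidation. It was among the 5 of the 8 genes that were called for neither strand in total libraries (edgeR adjusted p = 0.13). ENSGALG00000035334 and ENSGALG00000029500, at 38.3% and 45.3% reverse in total libraries, were others (edgeR adjusted p = 0.11 and 0.45). Their 2 oxidized libraries differed from each other in strand: the reverse share was 38.1% and 88.6% for the first and 28.2% and 99.6% for the second. Over the 24 genes the pooled reverse share of both strands was higher after oxidation in 16, equal in 7 and lower in 1, the lower one being ENSGALG00000036582. These differences follow in part from the rule, which set the oxidized share at 50% or more, and were not tested. The 4 genes whose reverse reads exceed the unstranded ones are counted among the equal or higher. Their share after oxidation rests on sense reads set to 0.

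**Figure D3:**
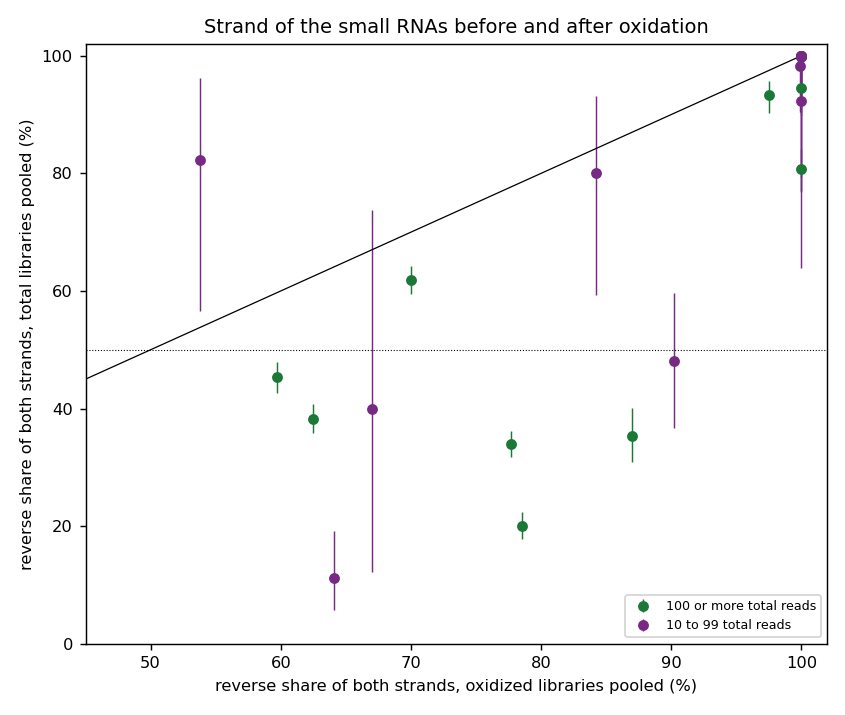
Reverse share of the reads of both strands in the total libraries (vertical axis, %) against the oxidized libraries (horizontal axis, %) for the 24 genes with 10 or more total reads, each pooled over 2 libraries. Bars are exact 95% binomial intervals of the total share, and the solid line marks equal shares. A cluster of genes sits near 100% on both axes, and 8 genes lie under 50% in the total libraries (dotted line).

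Among the 9 abundant genes with 10 or more sense reads, the reverse strand had the higher oxidation ratio of mean CPM in 9. Single libraries differed: the reverse share of ENSGALG00000032079 was 46.8% in oxidized replicate 2, against 62.5% and 60.9% in total libraries. In oxidized replicate 1 it was 28.2% for ENSGALG00000029500, against 45.6% and 44.9%. For ENSGALG00000035334 it was 38.1% there, against 37.7% and 39.0%. Summed over the 11 abundant genes, sense reads went from 149 ± 9.08 CPM in total libraries to 99.99 ± 16.9 CPM after oxidation, while reverse reads went from 192 to 401 CPM. Per 1000000 assigned reads other than miRNA both strands were lower after oxidation, the sense strand at 101.6 ± 17.1 against 543 ± 134 (0.187-fold) and the reverse strand at 0.590-fold. ENSGALG00000029193 is one of the 9, with 41 and 56 sense reads in total libraries, but its 0 sense reads after oxidation come from a negative difference (232 and 171 unstranded against 269 and 684 reverse reads) and may be an undercount. In the scarce genes sense reads were also higher after oxidation, 48.6 ± 6.23 against 4.92 ± 1.37 CPM, and 2.84-fold with miRNA left out. The split capped their total reads of either strand, so this gap between the tiers is largely fixed by it and is not a finding. Of the 24 genes with at least 10 sense reads in all, 18 had a higher ratio on the reverse strand, and 6 on the sense strand. No test was made of these differences, because the oxidized strand counts chose the genes.

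The oxidized libraries ordered the genes similarly in part and differed in their levels. Only genes with 10 or more reads in both entered the set, so part of this agreement is set by the rule. Reverse levels differed by no more than 2-fold between the oxidized libraries in 19 of the 40 genes. Of the 21 beyond that, 15 were higher in oxidized replicate 2 and 6 in replicate 1. Over the 38 genes with 10 or more reverse reads in both libraries, log2 levels had a Pearson r of 0.78 and a Spearman rho of 0.78, as a description across genes of 2 libraries. Other minimums gave lower values. Over the 39 genes with a reverse read in both, r was 0.67 and rho 0.75. Over the 21 with 100 or more, r was 0.76 and rho 0.66. In the total libraries 16 of 17 genes with 10 or more reverse reads in both lay within 2-fold, with r = 0.99. The median absolute log2 difference was 1.02 over the 38 genes in the oxidized libraries and 0.32 over the 17 genes in the total libraries.

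The widest gaps were found in 3 genes. ENSGALG00000050614 had 0 and 42 reverse reads in oxidized replicates 1 and 2, ENSGALG00000043903 had 141 and 5, and ENSGALG00000053804 had 10 and 88. Some rows of the gene table had 20 or more reads in one oxidized library but no read in its replicate, with a median of 122 reads in replicate 1 (202 rows) and 130.5 in replicate 2 (218 rows). In 21 of the 40 genes the reverse count lay under that median in at least 1 oxidized library, and in 19 it reached it in both. Of the 23 genes with 100 or more reads of either strand in both oxidized libraries, 65.2% lay within 2-fold on the reverse strand. In the sense group 111 of 151 genes lay within 2-fold on both strands together, against 25 of the 40 antisense genes on the same count. Both groups needed reads in both oxidized libraries, so rows absent from one were left out, and the groups were not matched for reads. With 100 or more reads in both oxidized libraries, 94 of 110 genes of the sense group and 21 of 23 antisense genes lay within 2-fold. Neither difference was tested.

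**Figure D4:**
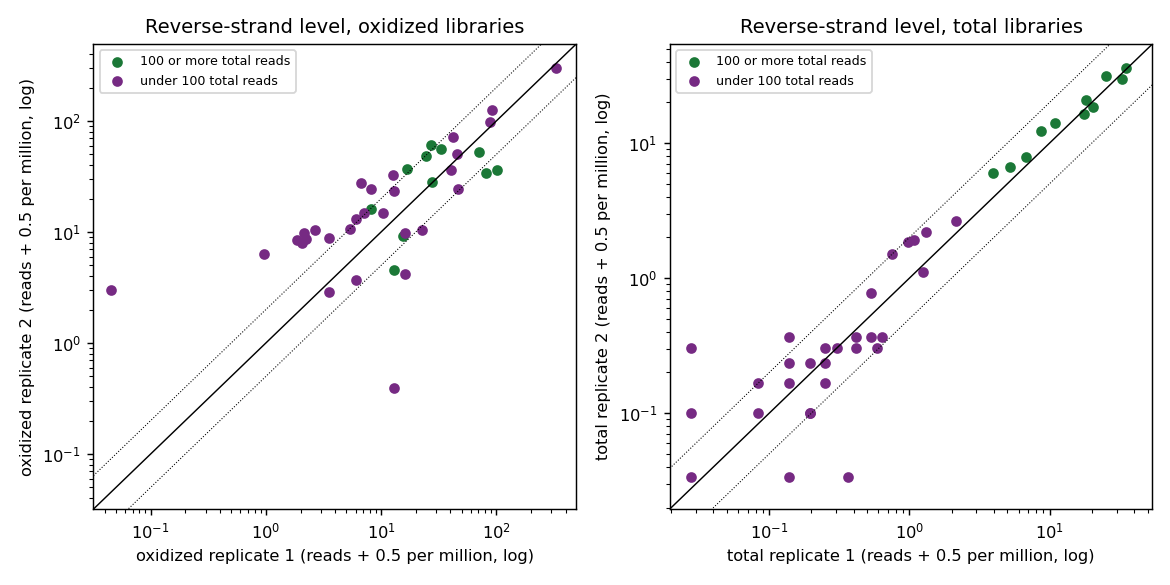
Reverse-strand level of the 40 genes in replicate 2 against replicate 1, as reads plus 0.5 per 1000000 assigned reads on log axes, for the oxidized (left) and total libraries (right). The solid line marks equal levels and dotted lines a 2-fold difference. In the oxidized libraries 21 genes lie outside the dotted lines, mostly above them.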

How the data were processed

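For each library the authors deposited unnormalized read counts. FeatureCounts and the galGal6 build are listed in the submitters' processing notes. Its version, the aligner, the annotation and the handling of reads that overlap several features are not given in the sources used here. Each of the 4 libraries had 12 files: 6 tables (TE families, miRNA, other genes, other repeats, tRNA, rRNA), as unstranded and as reverse-strand counts. All were read, and library size was the unstranded sum of the 6 tables.

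Sense reads were taken as unstranded minus reverse reads, or 0 where negative, which 182 gene rows were in some library. A row sharing reads with an overlapping gene is therefore uncertain. No gene of the set had counts identical to another row. The members, lists and tests were chosen with earlier results of these data known.

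Fits used edgeR 4.0.16 in R 4.3.3 (glmQLFit, glmQLFTest) on all tables, with the default expression filter, no TMM factors and Benjamini-Hochberg adjustment at 0.05. The strand fit used gene rows with 10 or more reads in the total libraries, compared sense and reverse reads, and had 1 library block. It left 1 residual degree of freedom per row, with the spread shared across rows. Binomial intervals came from scipy 1.17.1. Alternatives were TMM, DESeq2 1.42.0, limma 3.58.1 voom, other filters, miRNA left out of library size, and libraries left out. Scripts were tested on simulated data.

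The series describes each sample as divided, so same-numbered libraries were taken as a pair, although no label says that the numbers mark this. Their deviations from the group means correlated at 0.053 over 1326 features and at 0.28 over the 40 genes. Genes were named by rule: the 10 highest reverse levels, the 5 most abundant in total libraries, the 3 highest and 3 lowest oxidation ratios with 100 or more reverse reads, the 3 widest gaps between oxidized libraries, up to 5 mostly sense in total libraries and 2 on either side of the threshold. ENSGALG00000047315, ENSGALG00000033320 and ENSGALG00000029193 were named after their values were seen.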

Additional observations from a re-analysis of the deposited data

How the results depend on the processing

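Of 71 alternatives to 10 results, 39 left the value within its tolerance. The tolerance was 1.5 times for counts, an exact binomial interval over genes for the agreement of the oxidized libraries, and the spread between libraries for the rest. For the pooled reverse share, leaving out 1 library could not exceed that spread, so its staying within it shows nothing. The count of genes called higher after oxidation on both strands was 6 with the replicate block and ranged from 2 to 33 with 1 library left out. On the reverse strand it was 6 with TMM, 4 with DESeq2 and 14 with the block, and ranged from 7 to 35. Antisense calls in the total libraries fell from 10 to 2 with DESeq2 and to 6 without rows whose reverse reads exceed the unstranded ones, and were 13 with no block. With 1 total library the strand fit has no residual degrees of freedom, so no call could be made. None of these alternative counts has the share of all features called beside it. The pooled reverse share in total libraries, 57.2%, was 87.3% as a median of genes, 61.5% without the gene with most total reads, 50.7% without the genes whose reverse reads exceed the unstranded ones, and 55.3 to 59.1% with 1 library left out. The set held 23 genes at 100 or more reads and 21 at a share of 90% or more. Its median log2 ratio, 5.32, was 3.47 with miRNA left out, 3.80 with 5 reads added, and 4.37 to 5.22 with 1 library left out. The share of genes within 2-fold between oxidized libraries, 47.5%, was 65.2% for the 23 genes with 100 or more reads in both. It was 66.7% for those with 1000 or more, which are only 3 genes. With miRNA left out, an alternative added after the data were seen, the log2 ratio of summed reverse reads went from 2.66 to 0.84 for all genes, from 5.997 to 4.18 for the scarce tier, and from 1.06 to -0.76 for the abundant tier. It was 2.60 to 2.73, 5.85 to 6.16 and 0.996 to 1.13 with 1 library left out, and 2.77 for all genes without those whose reverse reads exceed the unstranded ones. Apart from the denominator and the number of genes or libraries, the causes were not tested.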

Other observations

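The rule needs unstranded reads in the oxidized libraries, and 5 further gene rows with 10 or more reverse reads in both of these had none there. Reverse reads of these rows exceeded the unstranded ones in the total libraries too, so their levels are uncertain. The 5 rows held 3825 and 5398 reverse reads after oxidation, 16.8% and 18.4% of all reverse-strand gene reads, and 2493 and 2708 in the total libraries. ENSGALG00000047143 had 1530 and 3011 reverse reads after oxidation and 1874 and 2120 in total libraries, a 1.43-fold ratio of mean CPM, but 0.411-fold per assigned reads other than miRNA. ENSGALG00000038760 had 1174 and 982 against 40 and 50, a 31.7-fold ratio, and ENSGALG00000049702 had 844 and 922 against 13 and 18, a 73.8-fold ratio, or 9.14-fold and 21.4-fold with miRNA left out. ENSGALG00000051038 followed this pattern at 174 and 179 against 3 and 2. ENSGALG00000012229 was lower after oxidation, with 103 and 304 against 563 and 518, a ratio of 0.469, or 0.133 with miRNA left out. The first of these rows had 176.6 ± 52.7 CPM on the reverse strand after oxidation, which in the set only ENSGALG00000052968 exceeded. These rows were picked after their values were seen. Defined by 10 or more reverse reads in both oxidized libraries and at least as many reverse as sense reads, the set would hold 43 genes in place of 40.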
